A study of Homo sapiens with 4 samples.

Results

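The 37 genes of the human mitochondrial genome were followed across the 4 treatments of a single-cell RNA sequencing series. They were chosen as every row of the count table whose gene ID maps to a symbol that starts with MT-, which gave 37 of 60651 rows: 13 mRNAs, 2 rRNAs and 22 tRNAs. Of these, 28 genes read in the direction that the annotation calls plus (transcribed from the heavy strand) and 9 in the opposite direction. The choice used the names of the genes and no measured value, but earlier results of these data were known when the genes were picked.

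The cells were CHP134, an established human neuroblastoma line with amplified MYCN, treated for 24 h. One group received 0.04% DMSO as vehicle and another 5 µM 13cRA (13-cis retinoic acid or isotretinoin, a retinoid used in neuroblastoma). The others received doxazosin (an alpha-1 adrenergic receptor blocker) at 10 µM, or a combination of 5 µM 13cRA and 10 µM doxazosin. All 4 groups share the cell line, the medium and 1 nanowell chip, and each treatment is 1 sample, so the spread between replicates is unknown and nothing below was tested. Wells with single live cells had been picked by imaging, and full-length cDNA was made without molecular identifiers, so a count is a read and not a molecule.

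The mitochondrial genome is a small circle that is transcribed from both strands into long precursors. The tRNAs lie between most of the mRNAs and rRNAs, and their excision frees the other RNAs, which is known as tRNA punctuation. The mRNAs encode core subunits of respiratory complexes I, III, IV and V, whose other subunits are encoded in the nucleus, while complex II is nuclear alone. The rRNAs form the mitochondrial ribosome, and the tRNAs decode its mRNAs. Most mature mitochondrial mRNAs, and the rRNAs, carry short poly(A) tails. Steady-state levels depend on synthesis, processing and decay as well as on the number of genome copies.

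The 7 tRNA genes that reached 5 CPM (counts per 1e6 counts of the library) in at least 1 library are shown first, since reads of these short genes are the least certain of the set. Sequences and positions are those of GENCODE 29 on GRCh38, whose gene IDs and versions equal those of all 37 rows. Each is printed 5′ to 3′ on the sense strand with the anticodon in capitals. In order they read leucine, isoleucine, glutamine, methionine, cysteine, lysine and proline codons.
MT-TL1, chrM:3230-3304, plus: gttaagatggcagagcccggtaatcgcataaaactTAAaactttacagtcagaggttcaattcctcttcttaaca
MT-TI, chrM:4263-4331, plus: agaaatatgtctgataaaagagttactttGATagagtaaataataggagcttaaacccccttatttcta
MT-TQ, chrM:4329-4400, minus: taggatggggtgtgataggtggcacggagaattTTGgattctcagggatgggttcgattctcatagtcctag
MT-TM, chrM:4402-4469, plus: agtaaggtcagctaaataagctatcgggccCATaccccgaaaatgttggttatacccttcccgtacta
MT-TC, chrM:5761-5826, minus: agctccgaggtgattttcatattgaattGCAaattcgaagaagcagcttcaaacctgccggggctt
MT-TK, chrM:8295-8364, plus: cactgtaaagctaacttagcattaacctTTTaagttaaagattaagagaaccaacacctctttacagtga
MT-TP, chrM:15956-16023, minus: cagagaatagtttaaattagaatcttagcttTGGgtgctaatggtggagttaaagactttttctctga

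All 22 tRNA genes are 59 to 75 bases long, so a read longer than the gene also covers a neighbour. MT-TL1 lies between MT-RNR2 and MT-ND1, and MT-TI and MT-TQ share 3 bases on opposite strands.

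The mRNAs are packed as tightly, and 3 adjacent pairs share bases. The longest such stretch, chrM:8527-8572, belongs to the end of MT-ATP8 and to the start of MT-ATP6, 2 subunits of ATP synthase that are read in different frames from 1 RNA. It is shown with the MT-ATP6 start codon in capitals, and a read within it cannot be given to either gene.
MT-ATP8 and MT-ATP6: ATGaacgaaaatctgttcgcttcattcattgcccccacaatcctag

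The second pair, MT-ND4L and MT-ND4, shares 7 bases. The remaining pair, MT-ATP6 and MT-CO3, shares 1 base, the last of the annotated MT-ATP6 stop codon. Of the 13 mRNA genes, 6 have a length that is no multiple of 3 and end in an incomplete stop codon, which the poly(A) tail is known to complete. The last 24 bases of an incomplete and of a complete end are given with the last codon, or its part, in capitals.
MT-ND4, chrM:12114-12137: acatcattaccgggttttcctctT
MT-CO2, chrM:8246-8269: atagggcccgtatttaccctaTAG

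Of 1287 cells, 1266 had at least 500 detected genes and were kept, with 370 DMSO, 347 13cRA, 246 doxazosin and 303 combination cells. No maximum was set on the mitochondrial share, because it would remove what is measured here. The summed counts were 52795672, 26711474, 47917750 and 79841970, and the median counts per cell 125807, 59898, 173684 and 227565, with the lowest depth in 13cRA. Markers of Schwann cells, fibroblasts, leukocytes, endothelium and epithelium summed to 0.639 to 12.3 CPM per list and library, with 1 of 22 markers (COL3A1, a fibrillar collagen) at 5 CPM or more. Of 9 noradrenergic neuroblastoma markers, 7 were at 5 CPM or more in at least 1 library, and TH and DBH, enzymes of catecholamine synthesis, were near 0 in all 4. The nuclear-retained RNAs MALAT1 and NEAT1 summed to 1426 CPM in DMSO, 4220 with 13cRA, 1371 with doxazosin and 1739 in the combination. They were highest in the library with the highest mitochondrial mRNA share, and their part in the results below was not tested.

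The first question was how much of a cell's RNA comes from the mitochondrial genome after each treatment. The median share of counts per cell was 10.7% in DMSO, 13.6% with 13cRA, 10.7% with doxazosin and 10.3% in the combination. The 95% intervals of these medians were 10.5 to 10.9%, 13.1 to 14.0%, 10.4 to 11.0% and 9.93 to 10.7%. They come from the ranks of the cells and cover only the sampling of cells within 1 sample. The 13cRA library stood apart, and those of the other libraries overlapped. In 13cRA, 80.4% of cells lay above the DMSO median, against 50.4% in doxazosin and 44.6% in the combination. A share of counts cannot tell apart more mitochondrial RNA and less RNA from other genes.

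The higher share in 13cRA lay in the mRNAs. The median mRNA share per cell was 5.44% in DMSO, 8.76% with 13cRA, 5.36% with doxazosin and 5.59% in the combination. The median rRNA share was 5.21%, 4.86%, 5.16% and 4.60% in the same order. The lower quartile of the mRNA share in 13cRA, 6.91%, was above the upper quartile in DMSO, 6.27%, while the rRNA shares of all 4 libraries overlapped over most of their ranges.

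Within a cell, mRNA over rRNA is a ratio of mitochondrial counts that needs no scaling to other genes. Its median was 1.06 in DMSO, 1.81 with 13cRA, 1.08 with doxazosin and 1.26 in the combination. The intervals were 1.01 to 1.11, 1.72 to 1.91, 1.01 to 1.15 and 1.18 to 1.35. Thus the combination lay between DMSO and 13cRA on this ratio, and doxazosin overlapped DMSO. The middle range of cells, between the quartiles, was 0.880 to 1.33 in DMSO and 1.33 to 2.43 in 13cRA, so these middle ranges met at about the upper DMSO quartile. The cells as a whole overlapped more, with 5th to 95th percentiles of 0.688 to 1.97 in DMSO and 0.602 to 3.35 in 13cRA.

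**Figure D1:**
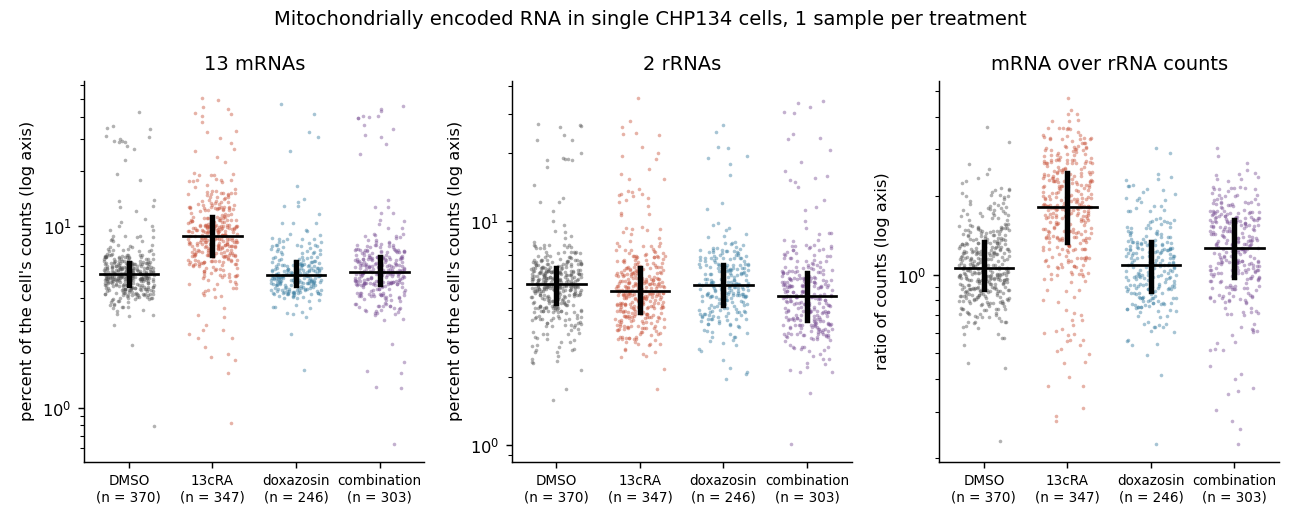
Share of each cell's counts from the 13 mRNAs (left) and the 2 rRNAs (middle), in percent, and the ratio of mRNA to rRNA counts (right), all on log axes, for the 4 libraries. Points are cells, thick bars the quartiles and thin lines the medians (mRNA 5.44, 8.76, 5.36 and 5.59%). The 13cRA cells sit higher on the left and on the right and not in the middle.

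The 13cRA cells were shallow, so the shares were read again within ranges of counts per cell. From 50000 to 100000 counts the median mRNA share was 5.31% in 79 DMSO cells and 8.94% in 135 13cRA cells. From 150000 to 250000 counts it was 5.58% in 104 DMSO cells and 9.17% in 24 13cRA cells. The share of the 13cRA cells was thus above that of DMSO in cells of like total counts. Between 4500 and 5500 detected genes the values were 5.60% in 51 DMSO cells and 8.13% in 117 13cRA cells, a smaller gap in the same direction. The 7 13cRA cells with 250000 counts or more stood far higher, at a median of 40.1%.

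**Figure D2:**
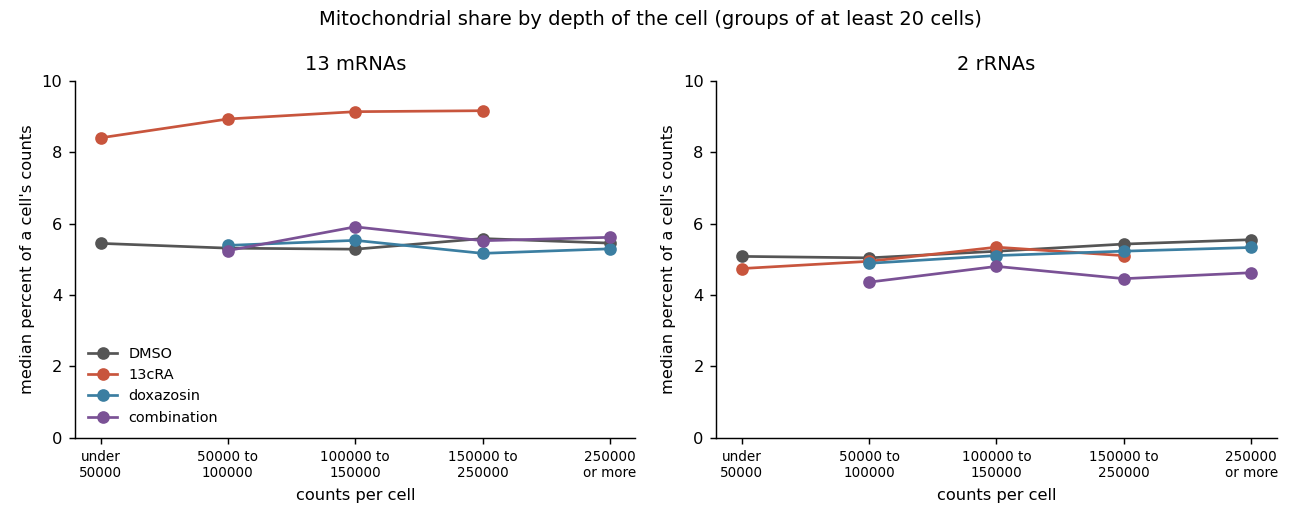
Median share of counts from the mRNAs (left) and the rRNAs (right), in percent, by counts per cell, with 1 line per library and ranges of at least 20 cells shown. The mRNA line of 13cRA stays between 8.41 and 9.17% while the other lines stay between 5.17 and 5.91%, and the rRNA lines lie within 4.36 to 5.55%.

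A tail of cells had over 25% mitochondrial counts: 17 in DMSO, 29 with 13cRA, 7 with doxazosin and 16 in the combination. These few cells held 30.6%, 40.1%, 15.0% and 36.7% of their library's mitochondrial counts, so levels summed over cells depend on them. They had fewer genes than the rest of their library, with medians of 2827 to 3244 genes against 4273 to 6626. For this reason the summed differences of the mRNAs and rRNAs below are also given for the cells with at most 25%. In those, the median total share was 10.6%, 13.2%, 10.6% and 10.1% of counts, the order seen in all kept cells.

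The comparison of 13cRA with DMSO asked which of the 37 genes differed after the retinoid. The log2 difference is that of CPM of summed counts with a pseudocount of 1 CPM. All 13 mRNAs were higher in 13cRA, with a median log2 difference of 0.74 (0.65 in cells with at most 25%), and 10 of them were at least 1.5-fold higher. The count was also 10 in cells with at most 25%, with MT-ND1 in the place of MT-ND2. Among the 10183 genes that reached 5 CPM in either library, 16.8% were at least 1.5-fold higher and the median log2 difference was -0.04. No mRNA reached 2-fold. The size depends on the scaling: with edgeR's TMM factors the median of the mRNAs was 0.38 with 1 mRNA past 1.5-fold, and with DESeq2 size factors 0.41 with 1. These scalings also moved the median of all genes, to -0.39 and -0.36, and relative to that median the mRNAs stood at 0.78 in CPM, 0.76 with TMM and 0.77 with DESeq2. Among cells with 4500 to 5500 genes the median was 0.36 with 2 mRNAs past 1.5-fold, or 0.57 with 4 where cells over 25% were also left out, and all 13 were still higher.

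Complex I takes electrons from NADH, and 7 of its core subunits are mitochondrial. MT-ND1 was at 4823 CPM in DMSO, 6882 with 13cRA, 4399 with doxazosin and 4868 in the combination. MT-ND2 was at 7595, 11874, 6812 and 8473 CPM in the same order. MT-ND3 was at 753, 1049, 673 and 861 CPM. In these sums the 3 were highest in 13cRA and lowest in doxazosin. In cells with at most 25% they were again highest in 13cRA, but doxazosin stood above DMSO and the combination, for MT-ND1 at 3889, 3688 and 3467 CPM. The log2 differences of 13cRA from DMSO were 0.51, 0.64 and 0.48, or 0.59, 0.57 and 0.39 in cells with at most 25%.

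MT-ND4, which shares 7 bases with MT-ND4L, was at 11395 CPM in DMSO, 21181 with 13cRA, 9958 with doxazosin and 12579 in the combination, 1.86-fold higher in 13cRA than in DMSO. Its median over cells was 8422, 15109, 8181 and 8656 CPM, and the lower quartile of 13cRA, 10875 CPM, was above the upper quartile of DMSO, 10234 CPM. MT-ND4L was at 4045, 7122, 3208 and 4040 CPM. The 2 genes lie on 1 mature RNA, and the log2 differences of MT-ND4 and MT-ND4L between 13cRA and DMSO were 0.89 and 0.82, or 0.77 and 0.69 in cells with at most 25%.

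MT-ND5 was at 3341 CPM in DMSO, 5527 with 13cRA, 2840 with doxazosin and 3380 in the combination, a log2 difference of 13cRA from DMSO of 0.73 (0.78 in cells with at most 25%). MT-ND6, the only mRNA gene on the opposite strand, was at 527, 1053, 516 and 578 CPM. Its log2 difference of 1.00 was the largest among the 13 mRNAs in the sum over all kept cells (0.80 in cells with at most 25%). Its cells overlapped more than those of MT-ND4, with quartiles of 301 to 561 CPM in DMSO and 468 to 1060 CPM in 13cRA.

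In complex III, which passes electrons to cytochrome c, the only mitochondrial subunit is cytochrome b. MT-CYB was at 4502 CPM in DMSO, 7663 with 13cRA, 4203 with doxazosin and 5222 in the combination. Its median over cells was 3310, 5628, 3441 and 3715 CPM, so the 13cRA library was the highest on both scales. The log2 difference from DMSO was 0.77, or 0.73 in cells with at most 25%.

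Complex IV, cytochrome c oxidase, holds mRNAs with a small and with a large difference of 13cRA from DMSO. MT-CO1, the catalytic subunit, was at 11253 CPM in DMSO, 15134 with 13cRA, 9872 with doxazosin and 11405 in the combination, a log2 difference of 13cRA from DMSO of 0.43 in all kept cells and in those with at most 25%. MT-CO2, which accepts electrons from cytochrome c, was at 13533, 25410, 11040 and 15074 CPM, a log2 difference of 0.91 (0.73 in cells with at most 25%). MT-CO3 was at 8529, 14038, 7656 and 9642 CPM, in between at 0.72 (0.65). Over cells, MT-CO2 had a median of 9063 CPM in DMSO and 15328 in 13cRA, and MT-CO1 of 7965 and 10602. As a share of the mitochondrial mRNA counts, MT-CO1 made up 14.7% in DMSO and 11.8% in 13cRA, and MT-CO2 17.6% and 19.9%.

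In complex V, ATP synthase, MT-ATP6 was at 5846 CPM in DMSO, 10129 with 13cRA, 4547 with doxazosin and 5938 in the combination. MT-ATP8 was at 547, 912, 453 and 549 CPM. The pair on 1 RNA had log2 differences of 13cRA from DMSO of 0.79 and 0.74, or 0.60 and 0.62 in cells with at most 25%. By complex, the summed mRNAs were 1.68-fold higher in 13cRA for complex I, 1.70-fold for III, 1.64-fold for IV and 1.73-fold for V. The log2 differences of these sums were 0.75, 0.77, 0.71 and 0.79, or 0.68, 0.73, 0.62 and 0.60 in cells with at most 25%, so the order of the complexes depends on the tail of cells.

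**Figure D3:**
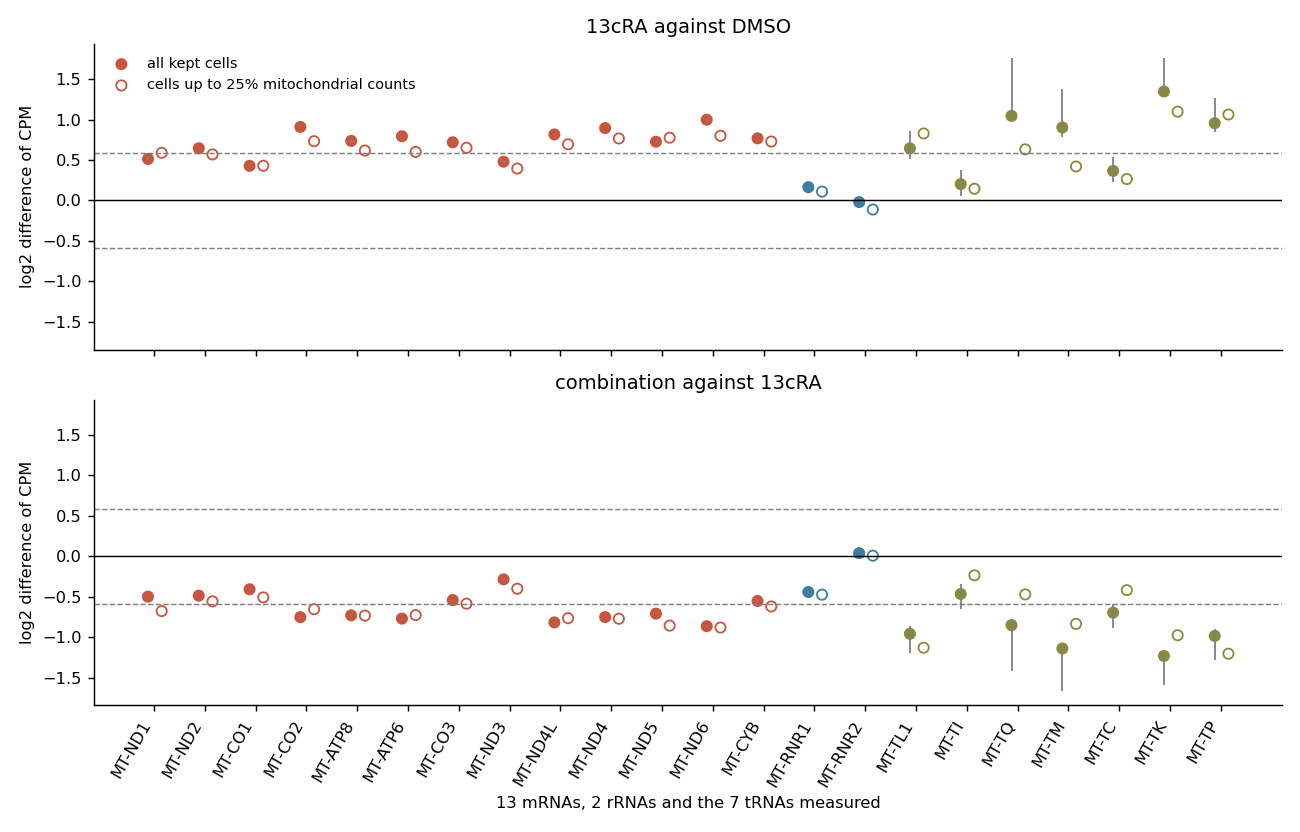
Log2 difference of CPM for 13cRA against DMSO (top) and the combination against 13cRA (bottom) for the 13 mRNAs (red), the 2 rRNAs (blue) and the 7 tRNAs measured (olive), from summed counts of all kept cells (filled) and of cells with at most 25% mitochondrial counts (open). Grey lines are counting intervals of the ratio without the pseudocount, too short to see for the mRNAs, and dashed lines mark 1.5-fold. All mRNAs lie above 0 in the top panel, from 0.43 to 1.00, and below 0 in the bottom panel.

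Across the 13 mRNAs, the difference of 13cRA from DMSO had a rank correlation of 0.50 with position along the genome, -0.27 with gene length, -0.20 with GC content and 0.20 with the DMSO level per length. In cells with at most 25% these were 0.68, 0.13, 0.05 and -0.08. The genes share transcripts and libraries, so these values describe the 13 genes only. The correlation with position kept its sign, and the other 3 changed theirs. The 6 mRNAs whose annotated length is no multiple of 3 had differences of 0.48 to 0.89 and the other 7 of 0.43 to 1.00, ranges that overlap. The other 7 include MT-ATP6, whose annotated stop codon shares its last base with MT-CO3.

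Per length, the mRNAs differed from each other far more than between treatments. In CPM per kb of gene, MT-CO2 was the highest mRNA of every library, at 19785 in DMSO, 37149 with 13cRA, 16140 with doxazosin and 22038 in the combination. MT-ND6 was the lowest, at 1004, 2006, 982 and 1101 CPM per kb. The highest over the lowest was 19.7-fold, 18.5-fold, 16.4-fold and 20.02-fold. From the top, the order in DMSO was MT-CO2, MT-ND4L, MT-CO3, MT-ATP6, MT-ND4, MT-CO1, MT-ND2, MT-ND1, MT-CYB, MT-ATP8, MT-ND3, MT-ND5 and MT-ND6. The neighbours MT-CO1 (7298 CPM per kb) and MT-ND2 (7288) were nearly level in DMSO, while in 13cRA MT-ND2 was at 11396 and MT-CO1 at 9814. In 13cRA, MT-CO2 also stood above MT-RNR2, the most abundant RNA per length of the other 3 libraries. This order turned in 13cRA cells with at most 25%, with MT-CO2 at 23033 and MT-RNR2 at 26278 CPM per kb.

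**Figure D4:**
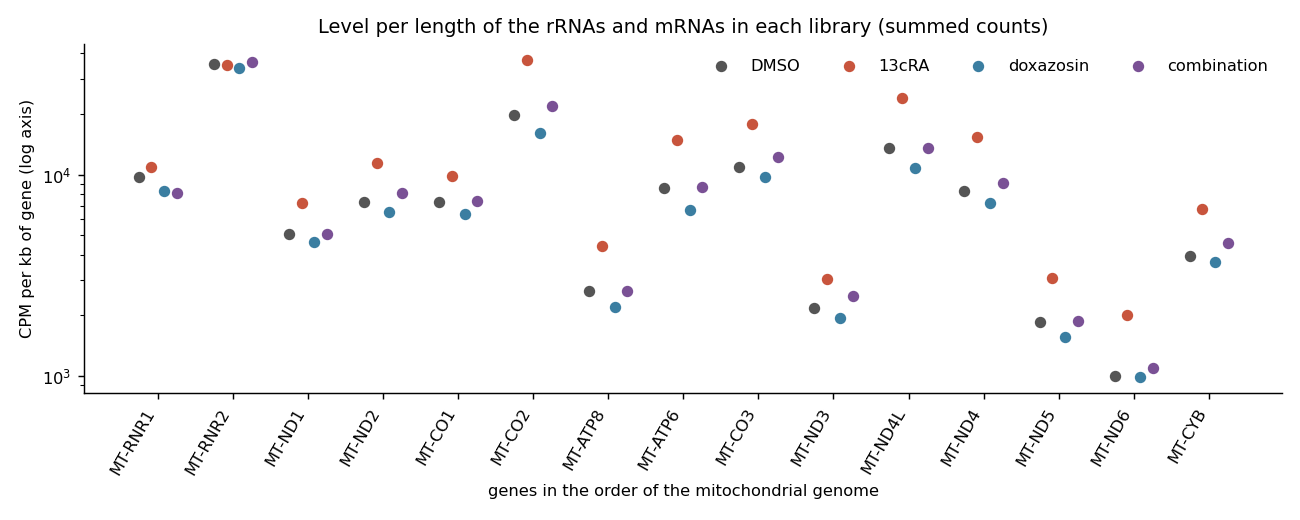
Level per length, in CPM per kb of gene on a log axis, of the 2 rRNAs and 13 mRNAs in genome order, with 1 point per library. The mRNA points of 13cRA are the highest for every gene, while MT-RNR2 lies between 33736 and 36082 CPM per kb in the 4 libraries.

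The rRNAs differed from the mRNAs in this comparison. MT-RNR2, the RNA of the large subunit of the mitochondrial ribosome, was at 55540 CPM in DMSO, 54768 with 13cRA, 52595 with doxazosin and 56252 in the combination. Its log2 difference of 13cRA from DMSO was -0.02 in the sum and -0.11 in cells with at most 25%. Its median over cells was 43888, 39415, 44269 and 39466 CPM, so the cells of both libraries with 13cRA had slightly lower medians, with quartiles that overlap widely (36058 to 51746 CPM in DMSO, 31679 to 49680 in 13cRA).

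MT-RNR1, the RNA of the small subunit, was at 9323 CPM in DMSO, 10442 with 13cRA, 7902 with doxazosin and 7686 in the combination. Its log2 difference of 13cRA from DMSO was 0.16 in CPM but -0.20 with TMM and -0.16 with DESeq2 factors, so its direction depends on the scaling. The ratio of MT-RNR2 to MT-RNR1 counts needs no scaling. Its median over cells was 5.58 in DMSO, 4.60 with 13cRA, 6.44 with doxazosin and 6.30 in the combination. The intervals of the median were 5.39 to 5.84, 4.41 to 4.86, 6.03 to 6.74 and 6.05 to 6.78. The ratio was thus lowest in 13cRA and higher than DMSO in both libraries with doxazosin, while the cells of all 4 overlapped.

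The tRNAs made up 4002 counts in DMSO, 3304 with 13cRA, 3053 with doxazosin and 5202 in the combination, or 75.8, 124, 63.7 and 65.2 CPM. They were 0.0444% to 0.0640% of the mitochondrial counts of a library. Of the 22, 21 were higher in 13cRA than in DMSO, and the median log2 difference was 0.40 (0.36 in cells with at most 25%). At least 1.5-fold higher were 8 (6 in cells with at most 25%), beside 16.8% of all genes measured. Of these 8, MT-TF, MT-TV and MT-TT, named after their values were seen, were under 5 CPM in both libraries and outside the filter behind that percentage. Many of these differences are between levels of a few CPM, which the pseudocount of 1 CPM pulls towards 0.

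Among the named tRNAs, MT-TK was at 4.68 CPM in DMSO, 13.4 with 13cRA, 5.07 with doxazosin and 5.15 in the combination. MT-TP was at 6.80, 14.1, 6.45 and 6.64 CPM. MT-TL1 was at 12.1, 19.5, 10.2 and 9.53 CPM. These 3 were highest in 13cRA, and counting intervals of the 13cRA to DMSO ratio lay above 0 on the log2 scale, at 1.28 to 1.76, 0.84 to 1.27 and 0.52 to 0.85. Intervals cover counting error only.

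MT-TI was at 16.6, 19.2, 14.5 and 13.6 CPM in the same order. MT-TC was at 15.9, 20.7, 9.31 and 12.4 CPM. MT-TI and MT-TC had the smallest differences of 13cRA from DMSO among the named tRNAs, 0.20 and 0.36 on the log2 scale, and MT-TC was lowest in doxazosin. MT-TM was at 3.56, 7.52, 2.90 and 2.87 CPM, and MT-TQ at 1.99, 5.17, 2.46 and 2.42 CPM, 2 genes that reached 5 CPM only in 13cRA. Their log2 differences of 13cRA from DMSO were 0.90 and 1.04, or 0.42 and 0.63 in cells with at most 25%. The 15 remaining tRNAs ranged from 0.0189 to 4.27 CPM over the 4 libraries.

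After each cell was thinned to 34000 counts, leaving 343, 272, 241 and 286 cells, MT-TK was counted in 15.7% of DMSO, 26.1% of 13cRA, 15.4% of doxazosin and 14.3% of combination cells. The exact (Clopper-Pearson) 95% intervals were 12.1 to 20.04%, 21.0 to 31.7%, 11.0 to 20.5% and 10.5 to 18.9%. MT-TL1 was counted in 24.8%, 39.0%, 23.7% and 21.7% of cells, and MT-TP in 14.3%, 25.4%, 16.6% and 17.8%. For the other named tRNAs the intervals of 13cRA and DMSO overlapped. MT-TC was counted in fewer 13cRA cells, 25.7% against 30.3% in DMSO, and MT-TI was nearly level at 30.5% and 29.4%. MT-TM was higher in 13cRA, at 12.9% against 9.62%, and so was MT-TQ, at 11.8% against 6.41%. The interval of 13cRA did not overlap that of any other library for MT-TK and for MT-TL1 (33.1 to 45.0%). For MT-TP it was 20.3 to 31.0%, which overlapped the intervals of doxazosin and the combination. Without thinning the same shares for MT-TK were 34.9%, 36.3%, 41.1% and 50.2%, with the highest share in the deepest library.

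By strand, the 9 genes of the opposite direction (MT-ND6 and 8 tRNAs) summed to 555 CPM in DMSO, 1098 with 13cRA, 537 with doxazosin and 602 in the combination. The log2 difference of 13cRA from DMSO was 0.98 for these genes together, 0.65 for their 8 tRNAs and 0.72 for the 14 tRNAs of the other direction, or 0.79, 0.63 and 0.70 in cells with at most 25%. Whether the counting used strand is not given in the sources used here. Reads of these 9 genes and antisense reads from precursors of the other strand therefore cannot be told apart, nor can the tRNAs and unprocessed precursors.

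Doxazosin alone was compared with DMSO to ask how the same genes differed after the second drug. In summed counts all 13 mRNAs were lower, with a median log2 difference of -0.19, and none was at least 1.5-fold lower, against 4.94% of 9680 genes. In cells with at most 25% the median was 0.05 with 10 of 13 higher, so the direction depends on 7 doxazosin and 17 DMSO cells. With the median over cells in place of sums, 6 of 13 were higher and the median difference was -0.03, for example 8422 and 8181 CPM for MT-ND4 and 3310 and 3441 CPM for MT-CYB. Among the rRNAs, MT-RNR1 had a log2 difference of -0.24 (-0.16 in cells with at most 25%). MT-TC was the only tRNA at least 1.5-fold lower, at -0.71 (-0.41 in cells with at most 25%).

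The combination was compared with each single drug and with DMSO, comparisons that share samples. Against DMSO, 12 of 13 mRNAs were higher in summed counts with a median of 0.13, and the remaining one, MT-ND4L, was at 4045 CPM in DMSO and 4040 in the combination. None was 1.5-fold higher, against 8.79% of 9843 genes. In cells with at most 25% the median was -0.07 with 4 of 13 higher, and under DESeq2 factors 7 of 13 were higher, so no direction can be given. MT-RNR1 stood at -0.28 (-0.36 in cells with at most 25%).

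Against 13cRA, all 13 mRNAs were lower in the combination, with a median log2 difference of -0.71 (-0.68 in cells with at most 25%). In this comparison 7 of 13 were at least 1.5-fold lower, against 16.9% of 10125 genes. These were MT-CO2, MT-ATP8, MT-ATP6, MT-ND4L, MT-ND4, MT-ND5 and MT-ND6, with values from -0.71 to -0.86. MT-ND3 differed least, at -0.29. The count was 4 without the 5 cells over 9000 genes (1 of them 13cRA and 4 combination), and 0 with TMM or DESeq2 factors, where the median was -0.36 and -0.43. With TMM, MT-ND3 was higher in the combination, at 0.06, and the other 12 lower. Relative to the median of all genes the median of the mRNAs was -0.71, -0.70 and -0.70 in CPM, TMM and DESeq2. Among cells with 4500 to 5500 genes the median was 0.95, since 3 of 20 combination cells there held 79.8% of the mitochondrial counts. Without cells over 25% it was -0.74 in that range.

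The same comparison over cells needs no sums. MT-CO2 had a median of 15328 CPM in 13cRA and 9750 in the combination, and MT-ND6 of 717 and 397 CPM. The upper quartile of MT-CO2 in the combination, 12622 CPM, was above the lower quartile in 13cRA, 11392 CPM, so the 2 libraries overlapped there. MT-RNR2 had medians of 39415 and 39466 CPM, and MT-RNR1 of 8593 and 6126 CPM. Of the 22 tRNAs, 10 were at least 1.5-fold lower in the summed counts of the combination than of 13cRA, with a median log2 difference of -0.55, beside 16.9% of all genes measured. The count was 9 and the median -0.45 in cells with at most 25%. Of the 10, MT-TF, MT-TV, MT-TH and MT-TT, again named after their values were seen, were under 5 CPM in both libraries.

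Against doxazosin, the combination had all 13 mRNAs higher in summed counts, with a median log2 difference of 0.31 and none at least 1.5-fold higher, against 9.16% of 9811 genes. In cells with at most 25% the median was -0.05 with 2 of 13 higher. The median log2 difference of the mRNAs between the libraries with and without 13cRA was 0.74 without doxazosin and 0.31 with it. In cells with at most 25% these were 0.65 and -0.05. With 1 sample per treatment, these differences cannot be assigned to the drug. The departure from additivity is the log2 difference of the combination from doxazosin minus that of 13cRA from DMSO. In CPM of summed counts it was below 0 for all 13 mRNAs, with a median of -0.45 and a range of -0.83 to -0.12. Of the 13, 1 was at least 1.5-fold lower on this scale, beside 1808 of the 10525 genes that reached 5 CPM in any library. Among these genes 5157 were below 0, and their median was 0.01. The median of the mRNAs was -0.72 in cells with at most 25%, -0.11 with TMM factors and -0.20 with DESeq2 factors. Either set of factors moves all genes by nearly the same amount, so not all 13 mRNAs stay below 0 with it. Among the 20 combination cells with 4500 to 5500 genes and their counterparts it was above 0, at 1.13.

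Cells varied widely within each library. Over cells, the coefficient of variation of CPM in DMSO was lowest for MT-RNR1 (0.53) and MT-ND5 (0.63) and highest for MT-ND3 (1.14), of the 15 mRNAs and rRNAs. In the combination it was 0.71, 0.79 and 1.30 for the same genes. MT-ND3 thus had the widest spread in each of the 4 libraries. All mRNAs were counted in at least 98.3% of the cells of every library.

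Among cells with at most 25%, the mRNAs went together from cell to cell. The median rank correlation over the 78 pairs of mRNAs was 0.45 over 353 DMSO cells, 0.62 over 318 13cRA cells, 0.51 over 239 doxazosin cells and 0.55 over 287 combination cells. The highest pair was MT-CO2 with MT-ND4 in DMSO, at 0.73, and MT-CO2 with MT-CO3 in 13cRA, at 0.86. The median correlation of the mRNAs with MT-RNR2 was lower, at 0.12, 0.14, 0.22 and 0.13. The points share a library, a total that each share is taken of, and their depth, and the mRNA share itself had correlations with counts per cell of 0.00, 0.08, -0.18 and -0.05.

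Nuclear genes of the same pathways were listed to see whether the nuclear partners moved with the mitochondrial mRNAs. Of 76 nuclear subunits of the 5 complexes, 73 were measured in 13cRA or DMSO. Of these, 2 were at least 1.5-fold higher and 8 at least 1.5-fold lower in 13cRA, against 16.8% and 16.7% of all genes. Their median log2 difference was -0.11, beside -0.04 for all genes and 0.74 for the mitochondrial mRNAs. No nuclear subunit of complex I, III or IV was 1.5-fold higher, whereas 5 of 7, 1 of 1 and 2 of 3 mitochondrial mRNAs of these complexes were.

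Among them, ATP5F1B, the catalytic beta subunit of ATP synthase, was at 2266 CPM in DMSO and 1334 in 13cRA, a log2 difference of -0.76. ATP5MC3, a gene for the membrane ring of ATP synthase, was at 569 and 326 CPM (-0.80). UQCRC2, a core protein of complex III, was at 189 and 105 CPM (-0.85), and NDUFS7, an iron-sulphur subunit of complex I, at 130 and 73.4 CPM (-0.81). SDHC, a membrane anchor of complex II, was at 86.5 and 44.4 CPM (-0.94). In the other direction, ATP5F1E was at 427 and 677 CPM (0.66) and ATP5F1D at 17.7 and 28.98 CPM (0.68), both small subunits of ATP synthase. With the median over cells in place of sums, ATP5F1D was lower in 13cRA, at -3.50. That value is for a gene of low level, with a median depth of 125807 counts per DMSO cell and 59898 per 13cRA cell. The part of depth in it was not tested. COX5A, a subunit of complex IV, was at 301 and 181 CPM (-0.73), while 8 of 10 measured complex IV subunits were higher, such as COX5B at 278 and 343 CPM (0.30). In the combination against 13cRA, 11 of 73 subunits were at least 1.5-fold higher, a share near the 14.6% of all genes. None was at least 1.5-fold lower, against 16.9% of all genes. The median of the subunits was 0.18 in CPM, beside 0.002 for all genes. With TMM factors the median of all genes moved to 0.34.

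**Figure D5:**
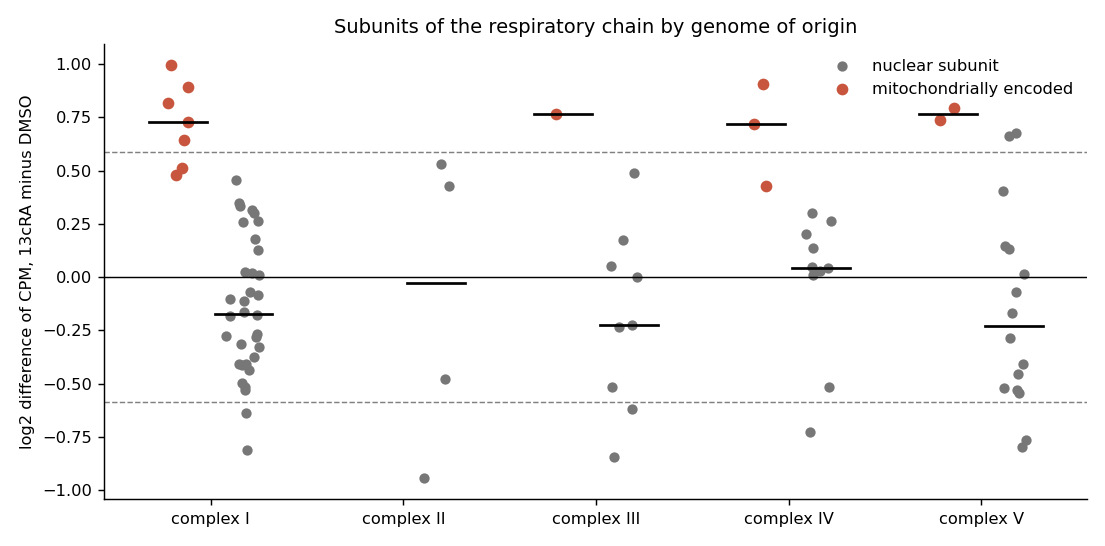
Log2 difference of CPM, 13cRA minus DMSO, of the subunits of each respiratory complex, with mitochondrially encoded mRNAs in red and measured nuclear subunits in grey, black bars at the medians and dashed lines at 1.5-fold. All 13 mitochondrial points lie between 0.43 and 1.00, and the 73 nuclear points lie on both sides of 0 with a median of -0.11.

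Genes that copy, transcribe and process the mitochondrial genome were more often lower than higher in 13cRA against DMSO, as were all genes (4794 higher and 5389 lower of 10183). Of those measured, 3 were higher and 6 lower for replication and packaging (median log2 difference -0.23), 2 and 6 for transcription (-0.45), and 8 and 15 for RNA processing (-0.27), beside a median of -0.04 for all genes. In cells with at most 25% these medians were -0.15, -0.37 and -0.18, beside 0.002 for all genes. The lists are small, and their difference from all genes was not tested. TFAM, which packages the genome and starts its transcription, was at 99.04 CPM in DMSO, 81.0 with 13cRA, 107 with doxazosin and 80.6 in the combination. POLRMT, the mitochondrial RNA polymerase, was at 36.3, 49.2, 27.1 and 22.1 CPM. TFB2M, the other initiation factor, was at 36.5, 22.05, 40.6 and 35.4 CPM. POLRMT was thus highest and TFB2M lowest in 13cRA. In the list for transcription, 1 of 8 measured genes was at least 1.5-fold higher in 13cRA than in DMSO (MTERF3, of the family of termination factors, 0.63) and 2 were lower (TFB2M at -0.70 and MTERF2 at -0.59). In that for replication and packaging, 1 of 9 was higher (POLG2, the accessory subunit of the polymerase, 0.99) and 1 lower (POLG, its catalytic subunit, -0.89). The share of all genes past 1.5-fold in this comparison was 16.8% higher and 16.7% lower.

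Genes that hold or degrade mitochondrial mRNA were for the most part level between 13cRA and DMSO. LRPPRC, which stabilises the mRNAs together with SLIRP, was at 206 CPM in DMSO, 209 with 13cRA, 200 with doxazosin and 191 in the combination. SLIRP was at 243, 265, 240 and 296 CPM, and MTPAP, the mitochondrial poly(A) polymerase, at 34.6, 34.6, 46.5 and 43.4 CPM. SUPV3L1, the helicase of the mitochondrial RNA degradosome, was at 68.5, 29.1, 73.0 and 52.6 CPM, a log2 difference of 13cRA from DMSO of -1.21. It was 1 of 8 measured genes of that list that was at least 1.5-fold lower, and none was higher. Of all genes measured, 16.7% were lower and 16.8% higher by that fold. PNPT1, the nuclease that works with SUPV3L1, was at 95.03, 83.7, 93.1 and 126 CPM.

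For RNA processing, 2 of 23 measured genes were at least 1.5-fold higher in 13cRA and 4 lower, again beside 16.8% and 16.7% of all genes, with PTCD1, a regulator of mitochondrial leucine tRNAs, the furthest at 14.7 CPM in DMSO and 52.5 in 13cRA. FASTKD5, which takes part in processing of mRNA ends that no tRNA flanks, was at 27.4 and 15.2 CPM (-0.81). Of 15 measured mitochondrial tRNA synthetases, 2 were higher and 13 lower, with a median of -0.15. At least 1.5-fold higher was 1 (AARS2, 0.69) and lower were 4, with MARS2, for methionine, at 12.3 and 2.73 CPM and FARS2, for phenylalanine, at 22.6 and 9.28 CPM. No measured regulator of biogenesis (4 genes, PPARGC1A and NRF1 among them) and no measured mitophagy gene (3, BNIP3 among them) passed 1.5-fold in either direction, the furthest of the former being GABPA, a factor that binds promoters of respiratory genes, at 28.6 and 18.9 CPM (-0.57). The direction of TFB2M, MTERF2, MARS2 and AARS2 was the opposite among cells with 4500 to 5500 genes.

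Nuclear copies of mitochondrial sequence can take reads from the genes they resemble. Of 404 such copies in the table, 3 were at 5 CPM or more and 73 had no count. MTATP6P1 was at 222 CPM in DMSO, 428 with 13cRA, 173 with doxazosin and 222 in the combination, which is 3.81%, 4.23%, 3.80% and 3.74% of MT-ATP6. MTND2P28 was at 1.24%, 1.24%, 1.17% and 1.12% of MT-ND2, and MTCO1P12 at about 0.1% of MT-CO1. The copies thus kept nearly the same small ratio to their parents in all 4 libraries. How reads that fit several places were counted is not given in the sources used here, so reads of a copy and of its parent cannot be told apart.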

How the data were processed

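The authors deposited 1 table of raw counts, reads per gene for 60651 genes in 1287 cells, and column names gave each cell's treatment. Per the submitters' processing notes, the tools were Seurat 4.3.0, featureCounts, STAR 2.7.8a, fastp 0.23.3 and bcl2fastq, while GRCh37 and GRCh38.p13 are named without saying which step used them. For strand setting, annotation and shared reads the authors' choice was not stated in sources used here. Cells with at least 500 genes were kept. Counts were summed per treatment, scaled to CPM and compared as log2 of CPM plus 1, among genes that reached 5 CPM in either library, with 1.5-fold as the threshold. With 1 sample per treatment no test was possible. The 95% intervals were exact Poisson for levels, Clopper-Pearson for ratios of counts and for shares, and rank-based for medians over cells. They cover counting error or the sampling of cells only. PCR copies make reads non-independent.

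All mRNAs and rRNAs, the tRNAs at 5 CPM or more in a library, and up to 4 measured genes per nuclear list with the largest difference of 13cRA from DMSO could be named, and those the text describes were taken from them. Beside these, TFAM, POLRMT, LRPPRC, SLIRP, MTPAP, PNPT1 and SUPV3L1 were named whatever their difference. The members, lists and rules were chosen with earlier results of these data known. Alternatives changed the cell filter, pseudocount, minimum level, fold threshold and scaling (edgeR 4.0.16 TMM, DESeq2 1.42.0). Windows of counts or genes per cell and the omission of cells over 9000 genes were added after seeing the data. Python 3.11.15, numpy 2.4.6, pandas 2.3.3 and scipy 1.17.1 were used, and the calculation was tested on simulated data.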

Additional observations from a re-analysis of the deposited data

Results flagged for a closer look

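Both rRNAs had differences of opposite sign for a drug alone and with the other drug, which no mRNA had in the sums over all kept cells. MT-RNR1 was higher with 13cRA alone (0.16 on the log2 scale, 13cRA against DMSO) and slightly lower with 13cRA in the presence of doxazosin (-0.04, combination against doxazosin), a departure from additivity of -0.20, or -0.32 in cells with at most 25% mitochondrial counts. MT-RNR2 was slightly lower with 13cRA alone (-0.02) and higher in the presence of doxazosin (0.10), and lower with doxazosin alone (-0.08) and higher in the presence of 13cRA (0.04), a departure of 0.12 in both cases. In cells with at most 25% that departure was -0.09, and MT-RNR2 kept 1 sign for each drug (-0.11 and -0.20 for 13cRA, 0.094 and 0.0071 for doxazosin). There, 13 of 13 mRNAs were higher with 13cRA alone and 11 of 13 lower with 13cRA in the presence of doxazosin, such as MT-CO1 at 0.43 and -0.19. With TMM factors MT-RNR1 was lower in both cases, at -0.20 and -0.055. With 1 sample per treatment the difference was not tested in any of these cases. All values are from counts summed over the kept cells. Values are listed here where the counting intervals of both differences left out 0. Several tRNAs also had opposite signs, such as MT-TL1 (0.64 with 13cRA alone and -0.09 in the presence of doxazosin) and MT-TI (0.20 and -0.08), with counting intervals of the second value that include 0.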

How the results depend on the processing

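No paired analysis was possible because each treatment has 1 sample. The median difference of the mRNAs between 13cRA and DMSO kept its sign under every alternative run, from 0.36 to 0.83, and that between the combination and 13cRA under all but 1 (cells of 4500 to 5500 genes). At 2-fold, 0 mRNAs passed in 13cRA against DMSO, the combination against 13cRA and the departure. At 1.5-fold, 1 of 13 passed as departure in the sums over all kept cells, beside 1808 of 10525 genes. With TMM the medians were 0.38 (1 mRNA past 1.5-fold) for 13cRA, -0.36 (0) for the combination against 13cRA, and -0.11 (0) as departure. With DESeq2 factors they were 0.41 (1), -0.43 (0) and -0.20 (0). With at most 25% mitochondrial counts they were 0.050 for doxazosin against DMSO, -0.072 for the combination against DMSO, -0.046 against doxazosin and -0.72 (12) for the departure. Means over cells gave -0.025 for doxazosin, 0.14 for the combination against doxazosin and -0.49 for the departure. Medians over cells gave -0.025 for doxazosin, -0.015 for the combination against DMSO, 0.044 against doxazosin and -0.63 (10) for the departure, and reversed ATP5F1D (-3.50) in 13cRA against DMSO and MT-TL1 (2.53), MT-TC (2.85) and MT-TK (0.76) in the combination against 13cRA, 3 tRNAs whose median over 13cRA cells was 0. Scaling to the counts of other genes gave -0.79 for the combination against 13cRA and -0.51 (2) for the departure.

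Among the settings added after seeing the data, cells of 50000 to 150000 counts gave a DMSO share of 10.5%, and medians of 0.11 for doxazosin, -0.12 for the combination against DMSO, -0.86 (13) against 13cRA, -0.17 against doxazosin and -0.87 (13) for the departure, with MTERF2 at 0.28 and PRORP at 0.16 reversed in 13cRA against DMSO. Without cells over 9000 genes, 4 mRNAs passed in the combination against 13cRA and the departure was -0.31. Cells of 4500 to 5500 genes gave shares of 13.0% (13cRA), 11.3% (doxazosin) and 12.4% (combination). Their medians were 0.36 (2) for 13cRA, 1.38 (13) for the combination against DMSO, 0.95 (0 lower) against 13cRA, 1.49 (13) against doxazosin and 1.13 (0 lower) for the departure. In the combination against 13cRA all 13 mRNAs turned, and of the members past 1.5-fold in the sums over all kept cells these reversed: MT-CO2 (1.04), MT-ATP8 (0.94), MT-ATP6 (0.75), MT-ND4L (0.95), MT-ND4 (0.70), MT-ND5 (0.50), MT-ND6 (0.74), MT-TL1 (0.057), MT-TQ (0.041), MT-TM (0.35) and MT-TC (0.63). In 13cRA against DMSO these were TFB2M (0.97), MTERF2 (0.48), MRM1 (0.18), MARS2 (0.42), AARS2 (-0.44) and NEAT1 (-0.55). With at most 25% as well, the shares were 13.0%, 11.2% and 11.5%, 4 mRNAs passed in 13cRA, and the medians were -0.027 for doxazosin, -0.12 for the combination against DMSO, -0.12 against doxazosin and -0.69 (8) for the departure, while TFB2M (0.92), MTERF2 (0.43), MRM1 (0.14), MARS2 (0.38), AARS2 (-0.49) and NEAT1 (-0.60) were again reversed. Apart from the 3 combination cells over 25%, the cause was not tested.

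The share of all genes at least 1.5-fold higher in 13cRA was 9.93% with no minimum level and 12.2% at 20 CPM, and that of genes lower 5.32% and 17.4%. The 15 tRNAs under 5 CPM rest on 614 to 1001 counts per library in all.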
